A study of Mus musculus with 12 samples.

Results

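Long and structural noncoding RNAs were followed across the study. Malat1, Neat1 and Kcnq1ot1 are long nuclear RNAs. Gas5, Snhg1 and Snhg12 carry small nucleolar RNAs (snoRNAs) in their introns. Rn7sk, Rmrp and Rpph1 are the RNA cores of enzymes or regulatory particles. All 9 were picked by name, with no threshold on their values. The 9 names stand on 10 of the 55421 genes in each deposited table, because Rmrp has 2 identifiers. Of the 9 names, 7 passed the filter used for testing, 10 or more normalized reads in 3 or more of the 12 libraries, as did 14721 genes in all. Rmrp had no read in any library and Rpph1 had 1. The cells were B16F10, a pigmented mouse melanoma line. They carried either a vector control (VC) or a CRISPR-Cas9 disruption of Bub1, a kinase of the mitotic checkpoint (Bub1KO). Each genotype was left untreated or given 8 Gy of radiation, which makes 4 groups of 3 libraries of ribosome-depleted total RNA. The labels give neither the time from irradiation to lysis nor the number of Bub1KO clones, and nothing in them ties the replicates to separate cultures. The p-values below therefore measure the spread between libraries, which may be technical.

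Nuclear long noncoding RNAs act without being translated. Malat1 gathers in nuclear speckles, bodies rich in splicing factors, and Neat1 is the scaffold on which paraspeckles assemble. Kcnq1ot1 is transcribed from the paternal copy of an imprinted domain, antisense to Kcnq1, and silences neighbouring genes on that copy. In snoRNA host genes the introns give rise to snoRNAs, which guide the chemical modification of ribosomal RNA, and the spliced exons of several hosts are removed by nonsense-mediated decay. Rn7sk is made by RNA polymerase III and, with Larp7, Mepce and the Hexim proteins, holds the kinase P-TEFb (Cdk9 with cyclin T) inactive, so that release from this particle frees the kinase for transcription elongation. Rmrp is the RNA of RNase MRP, which processes ribosomal RNA precursors, and Rpph1 is the RNA of RNase P, which trims transfer RNA precursors.

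The sequence of Rn7sk is shown because this RNA is the member whose response to irradiation differed between the genotypes. Its first 300 of 331 bases (GRCm38, chr9:78175334-78175633, minus strand, from the GENCODE M21 transcripts) are printed with each GATC in capitals. The GAUC elements of the 5′ hairpin are known as contact points for Hexim1, and the tetramer was found at bases 13, 42 and 64.

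Rn7sk: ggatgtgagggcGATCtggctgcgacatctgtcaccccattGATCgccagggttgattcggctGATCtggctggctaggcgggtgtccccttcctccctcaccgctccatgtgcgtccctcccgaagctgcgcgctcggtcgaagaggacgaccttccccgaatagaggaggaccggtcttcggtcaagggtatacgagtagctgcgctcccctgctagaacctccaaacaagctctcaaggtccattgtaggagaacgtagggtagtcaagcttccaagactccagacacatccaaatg

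The starts of Malat1 and of the snoRNA hosts are shown because these RNAs did not move alike after irradiation. Malat1 and Snhg12 rose in both genotypes, Snhg1 fell in both, and Gas5 passed as a fall in VC only. RefSeq promoter windows (GRCm38.p6) were found for 5 of the 9 names. From each, the 60 bases before and 30 bases after the RefSeq start were searched on both strands. The motifs were the TATA box letters TATATA and their variant TATTTATA, and the cyclic-AMP response element core, whose letters are TGACG. On the opposite strand this core reads CGTCA. A run of 5 or more C or T that begins within 10 bases of the start was also marked, since such a run is the known mark of snoRNA hosts and ribosomal protein genes. All matches are in capitals.

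Malat1 (chr19:5802643-5802732, minus strand): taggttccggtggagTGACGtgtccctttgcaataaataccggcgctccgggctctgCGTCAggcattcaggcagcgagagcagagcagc
Gas5 (chr1:161035106-161035195, plus strand, the second of its windows): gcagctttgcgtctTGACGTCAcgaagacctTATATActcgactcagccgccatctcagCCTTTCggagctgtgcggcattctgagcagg
Snhg1 (chr19:8723427-8723516, plus strand): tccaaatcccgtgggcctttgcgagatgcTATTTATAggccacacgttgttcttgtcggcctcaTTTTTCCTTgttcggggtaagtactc
Snhg12 (chr4:132308618-132308707, plus strand): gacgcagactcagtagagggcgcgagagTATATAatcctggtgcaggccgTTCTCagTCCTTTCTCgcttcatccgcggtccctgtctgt

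Gas5 and Snhg12 held TATATA at -29 and -32, and Snhg1 held TATTTATA at -31, where +1 is the RefSeq start. Of 32851 mouse promoter windows of this length, 1.88% held TATATA and 0.524% held TATTTATA. The C or T run began at -1 in Gas5, at +5 in Snhg1, and Snhg12 had 2 such runs, of 5 bases at -10 and of 9 bases at -3. Of all windows, 36.7% had at least 1 run. Malat1 had none of these but held TGACG at -45 and its reverse complement at -3. In Gas5 the letters TGACG at -46 and CGTCA at -43 overlap and together read TGACGTCA. Kcnq1ot1, whose window was searched but is not printed, held CGTCA at -42 and none of the other motifs or runs. TGACG on either strand was found in 9.59% of all windows. The first Gas5 window, which is not printed, held none of these motifs or runs. These matches describe letters only; binding was not measured here.

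Reads in genes per library ranged from 19380726 to 33087366. Bub1 averaged 2932 ± 226 normalized reads (SD, n = 3) in VC and 1662 ± 149 in Bub1KO without irradiation, and 1484 ± 22.8 and 998 ± 117 with it. The disruption thus left a reduced transcript level in the Bub1KO libraries and no library at 0. All 7 melanocyte markers, Pmel and Tyrp1 among them, exceeded 1 CPM (read counts scaled to the gene reads of each library) in every group, with summed levels of 15477 to 18953 CPM in VC and 21768 to 24323 CPM in Bub1KO libraries. These sums do not overlap between the genotypes, and their part in the genotype differences was not tested. Markers of other cells were low, with sums of 0.734 to 9.64 CPM for 6 leukocyte markers, 6.92 to 14.9 for 6 fibroblast and endothelial markers and 2.31 to 5.59 for 4 epithelial markers. Cd3e and Adgre1 had no read in the 12 libraries, and Cd68 made up nearly all of the leukocyte sum. The leukocyte sum was higher in irradiated libraries (4.35 to 9.64) than in untreated ones (0.734 to 1.07), and its part in the results was not tested. Replicate 1 of untreated Bub1KO differed most from its fellow replicates, with a chi-square per gene of 54 and 50.3 against them. All other replicate pairs had 5.89 to 19.1. In the same library the GC gap, the mean log2 deviation of the upper of 3 equal GC classes of genes less that of the lower, was -0.63, against -0.01 and 0.03 in replicates 2 and 3. Calls of the 7 tested members that change without this library are given with both values.

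Per kilobase of annotated exon, the 7 tested RNAs spanned about 3 orders of magnitude. In untreated VC, Malat1 stood at 3352 ± 225 normalized reads per kb (SD, n = 3), rank 303 of the 14416 tested genes with a length. Gas5 followed with 1466 ± 94.1, Snhg1 with 692 ± 63.6, Rn7sk with 405 ± 88.2, Snhg12 with 195 ± 13.8, Neat1 with 52.5 ± 8.42 and Kcnq1ot1 with 5.56 ± 0.536. No neighbours in this order overlapped in their libraries. By the same ranking Neat1 stood at 9083 and Kcnq1ot1 at 12842, so not all members were abundant here. The order of Rn7sk and Snhg1 changed with the group. In untreated Bub1KO, Rn7sk had 678 ± 201 per kb and Snhg1 543 ± 111, with overlapping libraries. In irradiated VC, Rn7sk (767 ± 103) lay above Snhg1 (441 ± 42.9) in every library, and in irradiated Bub1KO the pair again overlapped, at 394 ± 39.9 and 403 ± 19.6. The other members kept their places in all 4 groups. Malat1 rose to rank 59 in irradiated Bub1KO, with 10928 ± 1187 per kb. The annotated exons of Snhg1 and Snhg12 together cover their whole spans, and Kcnq1ot1 is 93092 bases long, so a level per kb is an average over regions that may be covered unevenly.

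**Figure D1:**
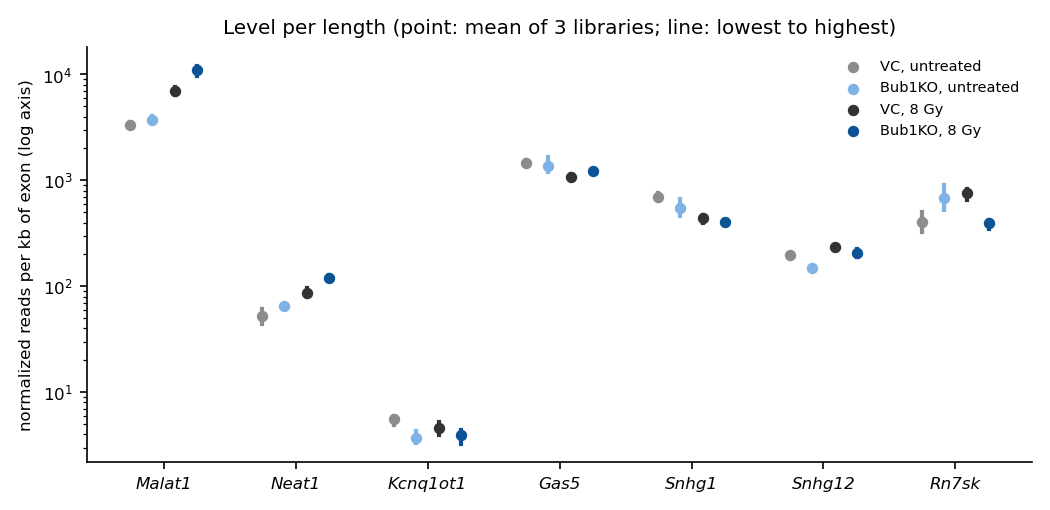
Normalized reads per kb of exon (log axis) for the 7 tested noncoding RNAs in the 4 groups; points are means of 3 libraries and lines run from the lowest to the highest library. Malat1 lay highest in every group and Kcnq1ot1 lowest, and Rn7sk moved from 405 per kb in untreated VC to 767 in irradiated VC.

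Together the members took 0.126% to 0.155% of gene reads in untreated libraries, 0.220% to 0.265% in irradiated VC and 0.322% to 0.400% in irradiated Bub1KO. Malat1 alone made up 0.0872% to 0.113% in untreated libraries and 0.284% to 0.361% in irradiated Bub1KO. A share of a library cannot tell more RNA per cell from more cells that hold it, and it depends on all other RNAs in that library. The share of mitochondrial reads moved with irradiation too, from 2.31% to 2.93% in untreated libraries to 3.53% to 3.93% in irradiated ones, and its part in the results was not tested.

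Counts of members are read against the share of all 14721 tested genes that passed limma at an adjusted p under 0.05. In untreated cells, 1 of 7 members differed between Bub1KO and VC (Kcnq1ot1, lower), where 4.01% of all genes did, 2.31% higher and 1.71% lower. After irradiation 4 of 7 differed between the genotypes, with Malat1, Neat1 and Gas5 higher in Bub1KO and Rn7sk lower, against 30.7% of all genes (14.3% higher, 16.4% lower). Irradiation changed 6 of 7 in VC, 4 upward and 2 downward, against 53.4% of all genes (27.6% higher, 25.8% lower). In Bub1KO it changed 5 of 7, 3 upward and 2 downward, against 49.4% (25.4% higher, 23.9% lower). The difference of these differences passed for 1 member, Rn7sk, and for 0.550% of all genes (0.136% higher, 0.414% lower in Bub1KO). The median log2 difference of the 7 members was -0.10, -0.13, 0.28, 0.07 and 0.24 in these 5 comparisons in the order given, and that of all genes lay between -0.01 and 0.03. Libraries of the groups compared did not overlap for 4, 5, 6 and 5 of 7 members in the first 4 comparisons, against 25.6%, 44.7%, 65.4% and 54.9% of all tested genes. The comparisons share groups: irradiated Bub1KO enters the genotype comparison after irradiation, the irradiation effect in Bub1KO and the difference of differences.

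**Figure D2:**
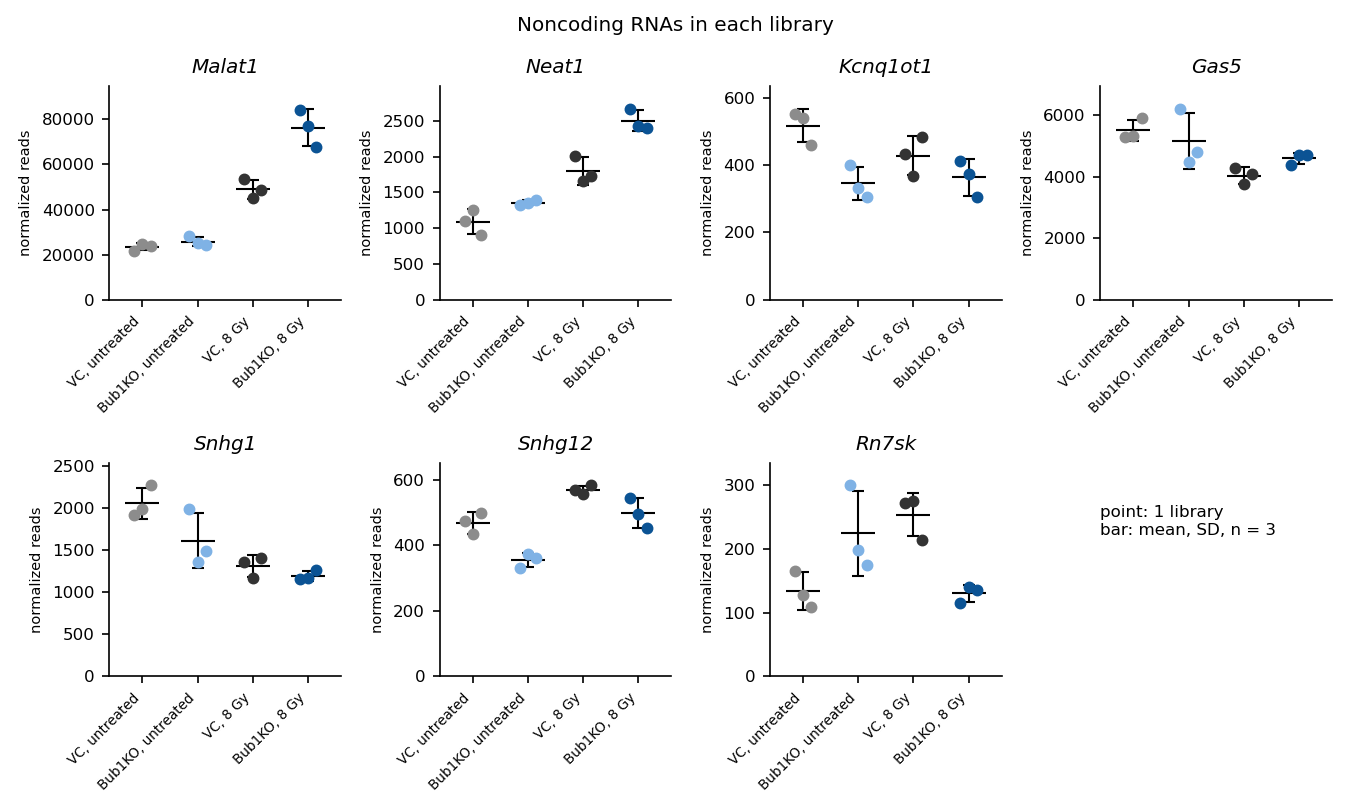
Normalized reads (linear axis from 0) of the 7 tested noncoding RNAs in each of the 12 libraries, with the mean and SD of each group of 3. The irradiated Bub1KO libraries are highest for Malat1 (67638 to 84157) and Neat1 (2405 to 2667), and Rn7sk is high in untreated Bub1KO and irradiated VC and low in the other groups.

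Malat1 (chr19:5795690-5802672, minus strand, a single annotated exon block) was the most abundant member in every library and had the largest rise of the 7. Malat1 was counted at 21635, 24624 and 23960 normalized reads in the libraries of untreated VC, against 28128, 24938 and 24265 in those of Bub1KO. Malat1 in irradiated libraries came to 53446, 44951 and 48745 for VC and to 84157, 77141 and 67638 for Bub1KO. The untreated genotypes overlapped, every irradiated library lay above every untreated one, and every irradiated Bub1KO library lay above every irradiated VC library. The mean rose 2.1-fold in VC (log2 difference 1.07, SE 0.0978, limma adjusted p = 1.22e-06) and 2.96-fold in Bub1KO (1.56, SE 0.0978, adjusted p = 4.4e-08). In irradiated cells Bub1KO had 1.56 times the VC level (0.64, SE 0.0849, adjusted p = 0.000149), while in untreated cells the difference was 0.14 (SE 0.0976, adjusted p = 0.488). The larger rise in Bub1KO did not pass as a difference between the genotypes (0.50, SE 0.138, limma adjusted p = 0.148). It passed with DESeq2 on the recovered reads (adjusted p = 0.0398), and in limma without replicate 1 of untreated Bub1KO (0.56, adjusted p = 0.00938).

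Neat1 (chr19:5824708-5845478, minus strand) lies near Malat1 on the same chromosome and moved in the same order of groups. Neat1 was counted at 1102, 1259 and 909.7 normalized reads in the libraries of untreated VC, against 1327, 1351 and 1389 in those of Bub1KO. Neat1 in irradiated libraries came to 2015, 1657 and 1726 for VC and to 2667, 2432 and 2405 for Bub1KO. No libraries of compared groups overlapped. The untreated difference of 0.33 (SE 0.123) did not pass (limma adjusted p = 0.188). Irradiation raised Neat1 1.65-fold in VC (0.73, SE 0.108, limma adjusted p = 7.76e-05) and 1.85-fold in Bub1KO (0.88, SE 0.108, adjusted p = 1.54e-05). After irradiation Bub1KO exceeded VC 1.39-fold (0.48, SE 0.0761, adjusted p = 0.000511). The rises did not pass the test of their difference (0.15, SE 0.152, adjusted p = 0.751). For Malat1 and Neat1 the irradiated genotype difference passed in all 16 alternative settings.

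Most messenger RNAs of the listed paraspeckle and speckle genes fell after irradiation, as did most of several other lists of RNA-processing genes below. Of 16 paraspeckle protein genes, 14 fell in VC and 15 in Bub1KO and none rose, with median log2 differences of -0.63 in each genotype. Among all genes, 25.8% fell in VC and 23.9% in Bub1KO. Sfpq, a core paraspeckle protein that binds Neat1, fell by 1.16 in VC and 1.18 in Bub1KO on the log2 scale (SE 0.0859 for each; limma adjusted p = 1.94e-07 and 1.55e-07). Hnrnpa1, an RNA-binding protein of paraspeckles and splicing, fell by 1.04 and 0.99 (SE 0.0685 for each). Between irradiated genotypes, 5 of the 16 were lower in Bub1KO, Sfpq (-0.30) and Cpsf6 (-0.33) among them, against 16.4% of all genes. Hnrnph3 was higher (0.41). The Hnrnph3 call ended without a filter on low values and without replicate 1 of irradiated Bub1KO (limma adjusted p up to 0.103), and the Cpsf6 call without that filter (0.0926). Of 9 genes for speckle proteins and factors of the Malat1 3′ end, 9 fell in VC and 7 in Bub1KO, led by the splicing factors Srsf2 (to 49.9% of the untreated level in VC and 52.3% in Bub1KO) and Srsf3 (to 49.8% in VC). In irradiated Bub1KO, 3 of the 9 were lower than in irradiated VC. Mettl16, a methyltransferase that binds the Malat1 3′ triple helix, was 1 of them (-0.31, SE 0.0642, adjusted p = 0.00297). Srsf1, a splicing factor, was another (-0.26, SE 0.062, adjusted p = 0.00644), a call that ended without a filter or with all 12 libraries (adjusted p up to 0.0863). In untreated cells none of these 25 genes passed limma between the genotypes, with 7 at an unadjusted p under 0.05; edgeR called none and DESeq2 called 1. Without replicate 1 of untreated Bub1KO, 11 were lower and 1 higher. Among all 14721 genes, 591 passed limma and 852 passed DESeq2 in untreated cells. In limma without that library, 1237 were lower and 1499 higher.

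Rn7sk (chr9:78175303-78175633, minus strand, 331 bases) was the member with a different pattern. In VC it rose after irradiation and in Bub1KO it fell. Rn7sk was counted at 165.8, 127.7 and 108.4 normalized reads in the libraries of untreated VC, against 299.8, 198.3 and 174.8 in those of Bub1KO. Rn7sk in irradiated libraries came to 271.6, 275.0 and 214.5 for VC and to 115.6, 140.6 and 135.5 for Bub1KO. Untreated VC and irradiated Bub1KO formed the low groups, untreated Bub1KO and irradiated VC the high ones, and neither genotype comparison nor either irradiation comparison overlapped. The mean rose 1.89-fold in VC (0.93, SE 0.199, limma adjusted p = 0.00142) and reached 0.582 of the untreated level in Bub1KO (-0.74, SE 0.199, adjusted p = 0.00684). Irradiated Bub1KO stood at 0.515 of irradiated VC (-0.95, SE 0.127, adjusted p = 0.000152). Untreated Bub1KO stood at 1.67 times untreated VC, which did not pass limma (0.72, SE 0.227, adjusted p = 0.124). This untreated difference passed with DESeq2 (adjusted p = 0.0469) and in limma with all 12 libraries in the fit (0.03), and the authors' deposited table gave an adjusted p of 0.00829. The difference of differences was -1.67 (SE 0.281, limma adjusted p = 0.0154).

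These Rn7sk values rest on 86 to 382 reads per library. The fall in Bub1KO and the irradiated genotype difference passed in all 16 alternative settings. Without replicate 1 of untreated Bub1KO, the library with the highest value, the fall was -0.51 (limma adjusted p = 0.0187) and the difference of differences -1.44 (0.00118). With the trend on GC content removed, the rise in VC was 0.54 (limma adjusted p = 0.0899). Rn7sk has a GC content of 58.0%, and the GC gap moved with treatment, from -0.63 to 0.03 in untreated libraries to 0.11 to 0.30 in irradiated ones. Its part in the result was not tested beyond this. The difference of differences kept its sign in all 21 settings (-1.84 to -1.44). It missed the threshold without replicate 2 of untreated VC (limma adjusted p = 0.0507), replicate 1 (0.0604) or 2 (0.0606) of irradiated VC, or replicate 1 of irradiated Bub1KO (0.0592). The genome holds many copies related to 7SK RNA and the treatment of reads with several positions is not given in the sources used here, so the assignment of these reads is uncertain. Gm26917, a transcript commonly found to hold ribosomal RNA sequence, ran from 278.5 to 444.3 normalized reads in untreated VC and from 162.6 to 445.4 in untreated Bub1KO. With 8 Gy it ran from 729.4 to 2896 in VC and from 340.3 to 401.4 in Bub1KO. It too was high in irradiated VC. Gm42418, which is known for the same feature and is named here after its values were seen, ranged from 574417 to 1059565 over the 12 libraries and did not pass in any comparison. The part of leftover ribosomal RNA in the Rn7sk result was not tested.

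Of 7 protein genes of the 7SK particle and P-TEFb, 1 differed between the irradiated genotypes, 3 changed after irradiation in VC and 2 in Bub1KO. In these comparisons 30.7%, 53.4% and 49.4% of all genes passed, so the 7 genes changed no more often than genes in general. Hexim1, the inhibitor that 7SK RNA presents to P-TEFb, was lower in irradiated Bub1KO than in irradiated VC (-0.63, SE 0.0812, limma adjusted p = 0.000119). The irradiated VC libraries held 1458, 1843 and 1619 normalized reads of Hexim1, all above the 1070, 1007 and 1092 of irradiated Bub1KO. In untreated cells the Hexim1 libraries spanned 1181 to 1455 in VC and 847.7 to 1324 in Bub1KO (-0.21, SE 0.168, adjusted p = 0.547), so the genotypes overlapped. Its difference of differences was -0.42 (SE 0.204, adjusted p = 0.437), which did not pass. After irradiation Larp7, which binds and stabilizes 7SK RNA, fell in both genotypes (-0.81 in VC and -0.66 in Bub1KO, SE 0.1 for each). Hexim2, a paralog of Hexim1, rose in both (0.63 and 0.41, SE 0.13 for each). In Bub1KO its call ended in 3 of 16 settings (adjusted p up to 0.0717): with the 6 Bub1KO libraries alone, and without replicate 1 of untreated or of irradiated Bub1KO. Ccnt1, a cyclin partner of Cdk9, fell in VC (-0.29). Cdk9 and Mepce, the capping enzyme of 7SK RNA, did not pass in any comparison. In untreated cells none of the 7 passed limma between the genotypes, with 1 at an unadjusted p under 0.05 and none by edgeR or DESeq2. Leaving out replicate 1 of untreated Bub1KO gave 1 higher there, and 3 lower and none higher after irradiation in Bub1KO. In that setting 1499 of all 14721 genes were higher in untreated Bub1KO, and 3825 fell and 3742 rose after irradiation in Bub1KO.

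**Figure D3:**
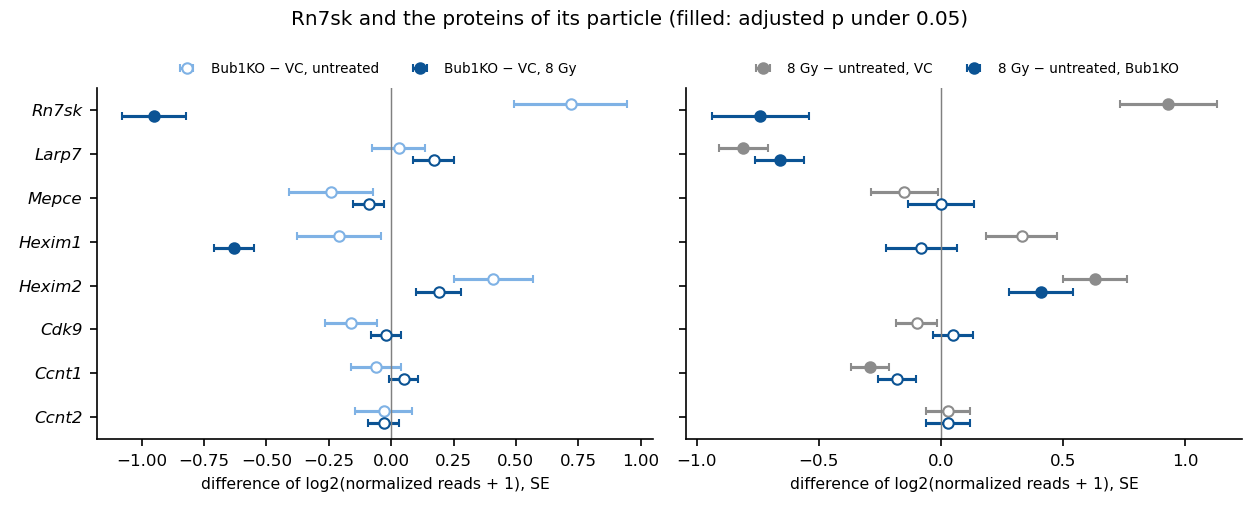
Differences of log2(normalized reads + 1) with standard errors for Rn7sk and 7 protein genes of its particle, Bub1KO against VC on the left and irradiated against untreated cells on the right; filled points have an adjusted p under 0.05. Rn7sk lies at 0.72 and -0.95 on the left and at 0.93 and -0.74 on the right. On the left, Hexim1 at -0.63 is the protein gene farthest below 0 in irradiated cells.

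Kcnq1ot1 (chr7:143203458-143296549, minus strand, antisense to Kcnq1) was lower in untreated Bub1KO. Kcnq1ot1 was counted at 551.2, 540.5 and 459.9 normalized reads in the libraries of untreated VC, against 400.5, 332.3 and 305.4 in those of Bub1KO. Kcnq1ot1 in irradiated libraries came to 433.0, 368.5 and 483.7 for VC and to 412.7, 374.1 and 304.6 for Bub1KO. The genotypes did not overlap without irradiation and overlapped with it. The untreated mean in Bub1KO was 0.669 of that in VC (-0.58, SE 0.135, limma adjusted p = 0.0477). This call lies close to the threshold and ended in 7 of 16 settings, among them leaving out any 1 library of untreated VC or replicate 2 or 3 of untreated Bub1KO (adjusted p up to 0.219). Without replicate 1 of untreated Bub1KO it was -0.69 (adjusted p = 0.00228), and the authors' deposited table gave an adjusted p of 0.002. No other comparison passed for Kcnq1ot1: the irradiated genotype difference was -0.24 (SE 0.122, adjusted p = 0.16), and irradiation gave -0.28 in VC and 0.07 in Bub1KO (SE 0.141 for each).

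Of 12 genes of the imprinted domain around Kcnq1ot1, 6 passed the filter. Kcnq1, which the RNA overlaps on the other strand, had 3 reads in the 12 libraries. Slc22a18, a transporter gene of the domain, was higher in untreated Bub1KO, with 123.8 to 164.9 normalized reads in VC libraries and 212.4 to 273.9 in Bub1KO libraries (0.77, SE 0.157, limma adjusted p = 0.0292). That call ended in 7 of 16 settings (adjusted p up to 0.138), among them leaving out any 1 library of untreated VC or replicate 2 or 3 of untreated Bub1KO. Irradiation raised Slc22a18 in VC (1.93, SE 0.137) and in Bub1KO (1.16, SE 0.137). Cd81 and Tspan32, both tetraspanin membrane protein genes, rose in VC (0.64 and 1.92) and in Bub1KO (0.90 and 2.56). Tspan32 was also higher in irradiated Bub1KO than in irradiated VC (1.52, SE 0.139, adjusted p = 7.17e-06), and Osbpl5, a lipid transfer protein gene, was lower (-0.53, SE 0.0765, adjusted p = 0.000276). Cd81 was higher (0.20, adjusted p = 0.00977) and Tssc4 lower (-0.43, adjusted p = 0.0015) there too, and both calls were lost when all 12 libraries were fitted (0.0569 and 0.189). Nap1l4, a histone chaperone gene, fell in VC (-0.38) and Bub1KO (-0.34). No neighbour passed limma in the difference of differences, with 2 at an unadjusted p under 0.05, none by edgeR and 1 by DESeq2. With replicate 1 of untreated Bub1KO left out, 3 were lower in limma. Among all 14721 genes this test called 81 with limma, 81 with edgeR and 283 with DESeq2. Without that library limma called 1108 lower. The 6 neighbours thus moved in both directions in each comparison after irradiation. Of all genes, 27.6% rose and 25.8% fell in VC, and 25.4% rose and 23.9% fell in Bub1KO. Between irradiated genotypes 14.3% were higher in Bub1KO and 16.4% lower.

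The 3 snoRNA hosts did not move together. Gas5 (chr1:161034422-161038539, plus strand) is the most abundant of them. Gas5 was counted at 5287, 5329 and 5920 normalized reads in the libraries of untreated VC, against 6212, 4500 and 4810 in those of Bub1KO. Gas5 in irradiated libraries came to 4290, 3756 and 4084 for VC and to 4394, 4705 and 4696 for Bub1KO. The untreated genotypes overlapped, all irradiated VC libraries lay below all untreated VC ones, and irradiated Bub1KO lay above irradiated VC. Gas5 fell to 0.734 of its level in irradiated VC (-0.45, SE 0.104, limma adjusted p = 0.00252). In Bub1KO the difference was -0.16 (SE 0.104, adjusted p = 0.23), with overlapping libraries. Irradiated Bub1KO exceeded irradiated VC 1.14-fold (0.19, SE 0.0616, adjusted p = 0.035), while the authors' deposited table gave an adjusted p of 0.271. That call ended in 7 of 16 settings, among them the fit on all 12 libraries (adjusted p = 0.245) and leaving out replicate 2 (0.136) or 3 (0.0641) of irradiated VC or replicate 2 (0.119) or 3 (0.0729) of irradiated Bub1KO. Without replicate 1 of untreated Bub1KO, Gas5 was lower in untreated Bub1KO (-0.24, limma adjusted p = 0.0456, against -0.10 and 0.717 with that library). Its difference of differences was then 0.43 (adjusted p = 0.00987, against 0.29 and 0.456 with that library).

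Snhg1 (chr19:8723475-8726443, plus strand), whose start lies 106 bases from that of Slc3a2 on the other strand, fell in both genotypes. Snhg1 was counted at 1911, 1984 and 2268 normalized reads in the libraries of untreated VC, against 1986, 1358 and 1493 in those of Bub1KO. Snhg1 in irradiated libraries came to 1357, 1166 and 1408 for VC and to 1161, 1165 and 1264 for Bub1KO. Every irradiated library lay below the untreated libraries of its genotype. The log2 difference was -0.65 in VC (SE 0.124, limma adjusted p = 0.000622) and -0.41 in Bub1KO (SE 0.124, adjusted p = 0.0135). Snhg1 did not pass between the genotypes in untreated (-0.36, SE 0.144, adjusted p = 0.206) or irradiated cells (-0.13, SE 0.0773, adjusted p = 0.233). Without replicate 1 of untreated Bub1KO, which lay among the VC libraries, the untreated difference was -0.52 (adjusted p = 0.00317). Without replicate 2 of irradiated VC the irradiated one was -0.21 (adjusted p = 0.0496).

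Snhg12 (chr4:132308623-132311024, plus strand) rose in both genotypes. Snhg12 was counted at 474.9, 433.4 and 499.0 normalized reads in the libraries of untreated VC, against 331.3, 373.5 and 362.3 in those of Bub1KO. Snhg12 in irradiated libraries came to 568.8, 557.3 and 583.5 for VC and to 544.8, 497.5 and 452.7 for Bub1KO. Bub1KO lay below VC without overlap in both conditions, but neither genotype difference passed (-0.40, SE 0.111, limma adjusted p = 0.0861 untreated; -0.20, SE 0.0832, adjusted p = 0.0903 irradiated). The untreated one passed without replicate 1 of untreated Bub1KO (-0.35, limma adjusted p = 0.0368). It also passed with the GC trend removed (0.0398) or with all 12 libraries (0.0128). The irradiated one passed without replicate 1 of irradiated Bub1KO (0.0441). In the authors' deposited table the untreated difference had an adjusted p of 0.00338. Irradiation raised Snhg12 by 0.28 in VC (SE 0.0925, adjusted p = 0.0195) and 0.48 in Bub1KO (SE 0.0925, adjusted p = 0.000673). The rise in VC missed the threshold without replicate 2 of untreated VC (0.0814) or replicate 1 (0.0515) or 3 (0.0608) of irradiated VC.

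**Figure D4:**
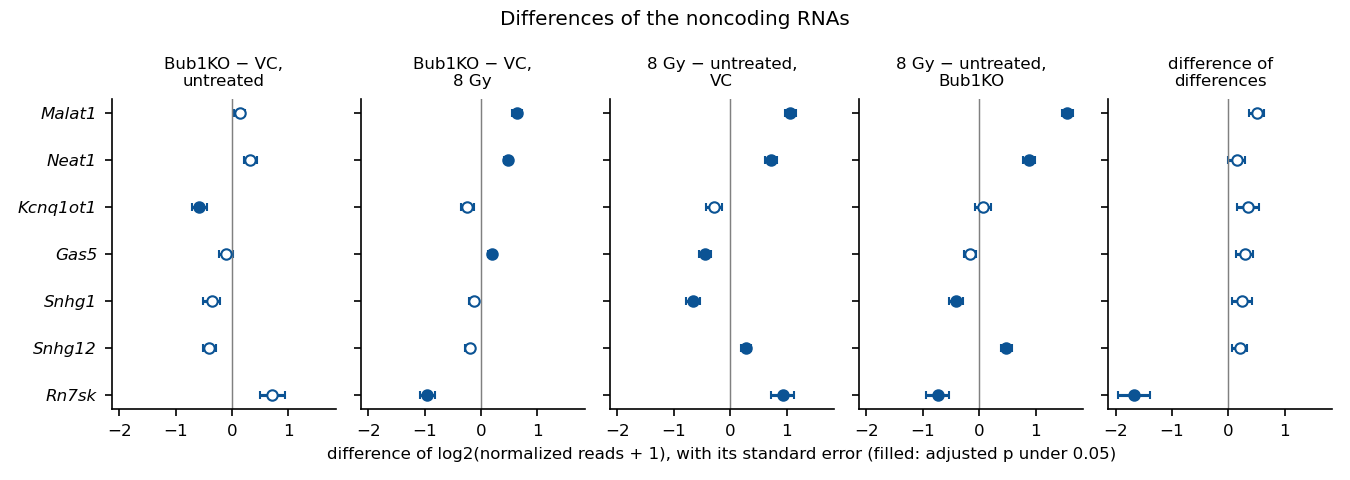
Differences of log2(normalized reads + 1) with standard errors for the 7 noncoding RNAs in the 5 comparisons; filled points have an adjusted p under 0.05. Malat1 and Neat1 lie right of 0 after irradiation in both genotypes (1.07 and 1.56 for Malat1). Gas5 and Snhg1 lie left, with Gas5 unfilled in Bub1KO. Rn7sk at -1.67 is the filled point among the differences of differences.

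No reads were counted for the snoRNAs themselves. The annotation places 10 snoRNA entries inside Gas5, 8 inside Snhg1 and 5 inside Snhg12, all on the same strand and all overlapping annotated exons of the host. Snord80 in Gas5 and Snora16a in Snhg12 each appear under more than a single identifier. Each entry had 0 reads in the 12 libraries. How reads shared with the host were counted is not given in the sources used here. The values of the hosts can therefore not be split into spliced RNA and snoRNA precursors. Of 16 other tested snoRNA hosts, 6 fell and 1 rose after irradiation in VC, and 2 fell and 1 rose in Bub1KO. The shares of all genes were 25.8% lower and 27.6% higher in VC, and 23.9% lower and 25.4% higher in Bub1KO. Snhg5 fell in both (-0.98 and -0.71, SE 0.112 for each), Snhg17 in VC (-0.44, SE 0.0743) and Snhg4 in Bub1KO (-0.54, SE 0.159). The 1 that rose in Bub1KO was Snhg15 (0.27, SE 0.0837, limma adjusted p = 0.0151), a call that ended without replicate 2 of untreated or of irradiated Bub1KO (adjusted p up to 0.0586). Snhg16 was lower in untreated Bub1KO (-0.46, SE 0.103, adjusted p = 0.0409), the 1 host of the 16 that passed limma there, with 2 lower by edgeR and 3 by DESeq2. The call ended with the replicate block, without any 1 library of untreated VC and without replicate 2 or 3 of untreated Bub1KO (adjusted p up to 0.17). By limma 1.71% of all 14721 genes were lower in untreated Bub1KO than in untreated VC, with 302 lower by edgeR and 400 by DESeq2. After irradiation 3 hosts were lower in Bub1KO than in VC, against 16.4% of all genes. Dancr was 1 of them (-0.47, SE 0.145, limma adjusted p = 0.0254). Its call ended in 8 of 16 settings, among them DESeq2 and leaving out any 1 library of irradiated VC or replicate 2 or 3 of irradiated Bub1KO (adjusted p up to 0.143). In the untreated genotype comparison, 9 of the 16 hosts were lower in Bub1KO when replicate 1 of untreated Bub1KO was left out. In that setting 1237 of all 14721 genes were lower.

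Among the other hosts, Snhg8 passed the test of the difference of differences, as Rn7sk did. Snhg8 was counted at 419.4, 344.4 and 371.7 normalized reads in the libraries of untreated VC, against 308.0, 442.6 and 530.7 in those of Bub1KO. Snhg8 in irradiated libraries came to 957.8, 1036 and 1003 for VC and to 393.1, 516.7 and 418.1 for Bub1KO. Only the irradiated VC libraries stood high. It rose in VC (1.40, SE 0.164, limma adjusted p = 1.01e-05), was lower in irradiated Bub1KO than in irradiated VC (-1.18, SE 0.0954, adjusted p = 2.88e-06), and was at 0.08 (SE 0.164, adjusted p = 0.721) after irradiation in Bub1KO. Its difference of differences was -1.32 (SE 0.231, adjusted p = 0.0189), a call that ended in 7 of 21 settings, each the loss of 1 library of untreated VC (replicate 2 or 3), irradiated VC (any) or irradiated Bub1KO (replicate 1 or 3), with adjusted p up to 0.0744.

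**Figure D5:**
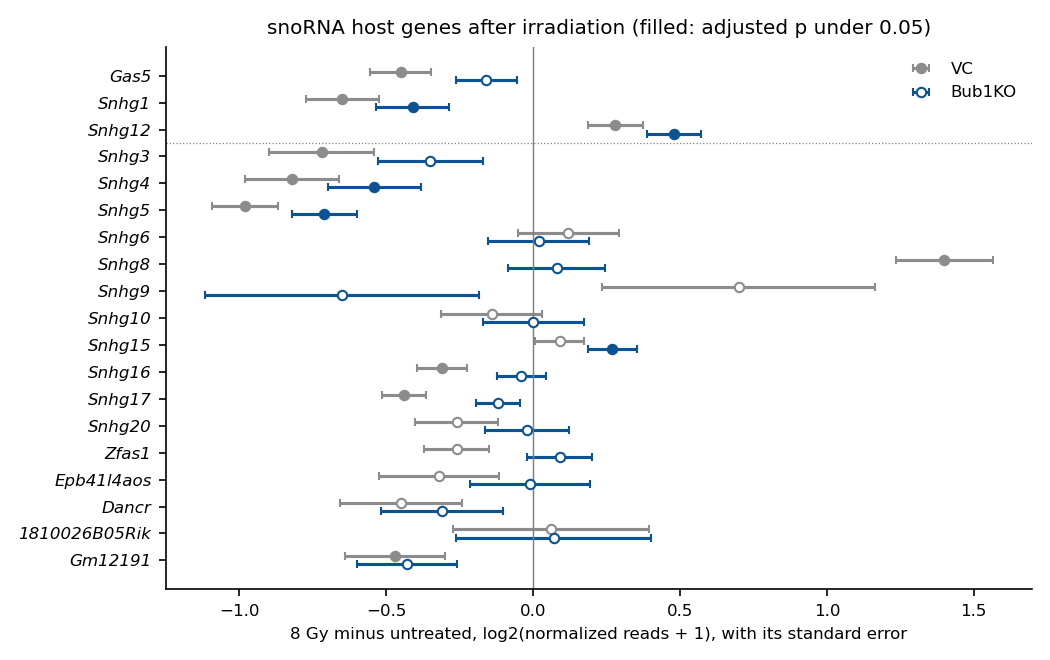
Irradiated minus untreated log2(normalized reads + 1) with standard errors for 19 snoRNA host genes, VC in grey and Bub1KO in blue; filled points have an adjusted p under 0.05 and the dotted line sets Gas5, Snhg1 and Snhg12 apart. Snhg12 lies right of 0 in both genotypes, Snhg8 lies at 1.40 in VC and 0.08 in Bub1KO, and Snhg5 lies left in both.

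Genes that act on the hosts and their snoRNAs mostly fell after irradiation. Of 11 protein genes of snoRNA particles, 8 fell in VC and 11 in Bub1KO. Among all genes, 25.8% fell in VC and 23.9% in Bub1KO, and 16.4% were lower in irradiated Bub1KO than in irradiated VC. Dkc1, the pseudouridine synthase of H/ACA particles, fell by 1.07 in VC (SE 0.105), beside Gar1 of the same particles (-1.05, SE 0.104). In Bub1KO the lowest adjusted p were those of Snu13 and Nop56, both core proteins of box C/D particles (-0.70, SE 0.0723, and -0.75, SE 0.0785). Fbl, the methyltransferase of box C/D particles, was lower in irradiated Bub1KO than in irradiated VC (-0.92, SE 0.0806, limma adjusted p = 5.21e-06), as were 5 others of the 11. Nop58 was next (-0.26, adjusted p = 0.00475), a call that ended without a filter or with all 12 libraries (up to 0.126). Of 14 nonsense-mediated decay genes, 11 fell in VC and 10 in Bub1KO, led in each by Magoh, a subunit of the exon junction complex (-0.97 and -0.95, SE 0.114 for each). Casc3 and Eif4a3, of the same complex, came next in VC (-0.43, SE 0.0648) and Bub1KO (-0.55, SE 0.0777). In irradiated Bub1KO, 4 of the 14 were lower than in irradiated VC, Smg5 (-0.45, SE 0.0586) and Smg9 (-0.38, SE 0.0772) first. The Smg9 call ended with the GC trend removed or with all 12 libraries (adjusted p up to 0.158). None of these 25 genes passed limma between untreated genotypes, with 3 at an unadjusted p under 0.05 and none by edgeR or DESeq2. In the absence of replicate 1 of untreated Bub1KO, 4 of the 25 were lower. In untreated cells 4.01% of all genes passed limma with every library, and 1237 of 14721 were lower without this one.

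Rmrp and Rpph1 could not be followed. Rmrp had 0 reads on both of its identifiers, which overlap each other over 271 bases on the same strand (chr4:43492783-43493063, minus strand). A count of 0 in 298294867 gene reads allows a level of up to 0.0101 CPM (3 reads, counting error only). Rpph1 (chr14:50807449-50807767, minus strand) had 1 read, in replicate 2 of irradiated Bub1KO, and 233 of its 319 bases overlap exons of Ccnb1ip1 on the same strand. Reads that fall on overlapping genes may be dropped in counting, and the setting used is not given in the sources used here, so a value of 0 does not show that these RNAs were absent. Of 10 tested protein genes of RNase P and RNase MRP, 6 fell after irradiation in VC and 5 in Bub1KO, with Rpp30 at -0.89 in each (SE 0.0854), Pop1 next in VC (-0.52) and Rpp40 next in Bub1KO (-0.70). With replicate 1 of untreated Bub1KO left out, 8 fell in Bub1KO, as did 3825 of all 14721 genes. With all libraries kept, 25.8% of all genes fell in VC and 23.9% in Bub1KO, and 16.4% were lower in irradiated Bub1KO than in irradiated VC. Between irradiated genotypes 4 of the 10 were lower in Bub1KO, Rpp25l (-0.56) and Pop7 (-0.61) with the smallest adjusted p. Those 2 calls were lost when all 12 libraries were fitted (adjusted p = 0.091 and 0.17).

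Genes of RNA polymerase III, which transcribes Rn7sk, Rmrp and Rpph1, fell in most cases after irradiation. Of 22 subunit and factor genes, 14 fell in VC and 12 in Bub1KO, and 1 rose in each. Among all genes, 25.8% fell and 27.6% rose in VC, and 23.9% fell and 25.4% rose in Bub1KO. With replicate 1 of untreated Bub1KO left out, 16 fell and 2 rose in Bub1KO. In that setting 3825 of all 14721 genes fell and 3742 rose. Polr3g and Polr3gl encode alternative forms of 1 subunit and moved apart: Polr3g fell (-1.11 in VC and -0.83 in Bub1KO, SE 0.112 for each) and Polr3gl rose (0.44 and 0.62, SE 0.11 for each). Polr3gl was also higher in irradiated Bub1KO than in irradiated VC (0.52, SE 0.0795, limma adjusted p = 0.000372). After Polr3g, the lowest adjusted p among genes that fell were those of Ssb in VC (-0.59), which binds the ends of polymerase III transcripts, and of Crcp in Bub1KO (-0.38). Between irradiated genotypes 3 of the 22 were higher and 3 lower, near the shares of all genes (14.3% and 16.4%). Polr3e (-0.41) and Snapc4 (-0.33), a subunit of the complex that recognizes the Rn7sk type of promoter, were among the lower. Brf1 was among the higher (0.26, adjusted p = 0.00585), a call that ended with all 12 libraries in the fit (0.0502). Of the other structural RNAs listed, 4 passed the filter (Rny1, Rnu73b, Scarna13 and Scarna17). None passed limma in the 5 comparisons, with none at an unadjusted p under 0.05 and none by edgeR or DESeq2. With replicate 1 of untreated Bub1KO left out, 1 was higher after irradiation in Bub1KO, as were 3742 of all 14721 genes. Normalized values of the 4 were 0.823 to 89.5 per library, below the lowest Rn7sk value of 108.4. Standard errors of their differences reached 0.618, so changes of the size seen in Rn7sk were not all detectable at this depth.

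Other long noncoding RNAs moved in both directions. Of 19 tested, 7 rose and 5 fell after irradiation in VC, and 5 rose and 4 fell in Bub1KO. Among all genes, 27.6% rose and 25.8% fell in VC, and 25.4% rose and 23.9% fell in Bub1KO. Between irradiated genotypes 14.3% of all genes were higher in Bub1KO and 16.4% lower. Trp53cor1, a p53-induced RNA, rose in VC (1.68) and in Bub1KO (1.42, SE 0.0992 for each), and Mir22hg, the host of miR-22, rose by 1.91 and 2.01 (SE 0.177 for each). Mir17hg, the host of the miR-17 cluster, fell (-1.67 and -1.18, SE 0.204 for each), as did Dleu2 (-0.83 and -0.58, SE 0.124 for each). Between irradiated genotypes 3 were higher in Bub1KO, 2900097C17Rik (0.25) and Mir22hg (0.49) first, and 3 were lower, Gm26917 (-1.89, SE 0.331) and Morrbid (-0.57, SE 0.112) first. The calls of 2900097C17Rik and Mir22hg were lost when all 12 libraries were fitted (adjusted p = 0.0546 and 0.0813), and that of Gm26917 without a filter (0.12). In untreated cells none of the 19 passed limma between the genotypes, with 5 at an unadjusted p under 0.05 and none by edgeR or DESeq2. With replicate 1 of untreated Bub1KO left out, 2 were lower there, and 7 rose and 3 fell after irradiation in Bub1KO. Of all 14721 genes, 1237 were lower there in that setting, and 3742 rose and 3825 fell.

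The genes whose log2 values ran most like each member over the 12 libraries are given as a description; the libraries share 1 scaling and fall into 4 groups. Malat1 was followed most closely by Cers4 and Gdf11 (Pearson r of 0.991 for each), and Neat1 by Adck2 (0.982) and 5033403F01Rik (0.979). For Gas5 they were Tor1b and Eif3e (0.966 for each), for Snhg1 Brix1 (0.986) and Snora17 (0.985), and for Snhg12 Rtn4rl1 (0.971) and Tspan15 (0.967). Kcnq1ot1 had Gm5962 (0.922) and Tmed5 (0.905). Rn7sk had the lowest best match of the 7, with Kit at 0.840 and Lin52 at 0.819.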

How the data were processed

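Total RNA from 12 B16F10 libraries was read from 2 tables that the authors deposited. Per the submitters' processing notes, reads went through Trim Galore, cutadapt, STAR, SAMtools and HTSeq on GRCm38.p6 (mm10); tool versions, the strand setting and the handling of reads with several positions: not given in the sources used here. Values are a signal: judging from the deposited values, the authors divided read counts by 1 size factor per library, shared by both tables. Dividing by the step of each library returned whole reads (100.0% of values, tolerance 0.01). The deposited log2 fold changes, scores and p-values of the authors were used only where named. They stand beside a mean over all 12 libraries, so the authors' fit may differ from the 6-library genotype fits used here. Differences are on log2(value + 1), which understates low genes, tested with limma-trend (limma 3.58.1, R 4.3.3) over 14721 genes and Benjamini-Hochberg adjusted at 0.05. Genotypes were compared on their own 6 libraries; irradiation and the difference of differences used all 12. Tests were checked on simulated data. Members and lists were chosen with earlier results of these data known. From the other lists, the 2 called genes of smallest adjusted p per comparison and direction are named, plus Bub1, and per member the 2 genes of highest r. Positions are from GENCODE M21 (GRCm38), promoters from RefSeq (GRCm38.p6). A gene of the 7SK and P-TEFb list is not reported here. Same-numbered libraries did not deviate together and are not treated as pairs. Alternatives were TMM factors, edgeR, DESeq2, other pseudocounts (0.5, 8) and filters (none, 50), removal of the GC trend, a replicate block, other libraries in the fit, and each library left out.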

Additional observations from a re-analysis of the deposited data

Results flagged for a closer look

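The genotype difference of Rn7sk depended on irradiation by the test of that dependence: Bub1KO minus VC was 0.72 in untreated cells and -0.95 after 8 Gy, a difference of -1.67 (SE 0.281, limma adjusted p = 0.0154 over 14721 genes). Untreated VC libraries held 108 to 166 normalized reads and irradiated ones 215 to 275. Untreated Bub1KO libraries held 175 to 300 and irradiated ones 116 to 141. The ranges thus did not overlap within either genotype and lay in opposite order. Over 21 other settings the adjusted p ranged from 5.06e-06 to 0.0606.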

How the results depend on the processing

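The 35 log2 differences of members were recomputed in 595 alternative settings: 559 kept their direction and side of the threshold, 22 lost the call, 12 gained one and 2 changed sign. Both sign changes were of Kcnq1ot1 after irradiation in Bub1KO, which was 0.07 and ranged from -0.03 to 0.19 with 1 library left out; it was never called. In untreated cells the count of members differing between genotypes was 1 and became 2 with DESeq2, 0 without a filter on low values, 2 with the GC trend removed, 3 with all 12 libraries in the fit and 0 to 4 with 1 library left out, with 4 (all lower: Kcnq1ot1, Gas5, Snhg1 and Snhg12) without replicate 1 of untreated Bub1KO. With the replicate block it was 0 (Kcnq1ot1, adjusted p = 0.0658); the block also ended the irradiated genotype difference of Gas5 (adjusted p = 0.0597) and changed no other member's call. The replicate numbers showed no pairing: 18 correlations between same-numbered libraries ranged from -0.19 to 0.20, and in 6 of 36 checks a library correlated best with its own number. For the difference of differences the count of 1 became 2 with DESeq2 and 0 to 3 with 1 library left out. Counts in the other 3 comparisons stayed within 1.5 times. Over all genes, the untreated genotype comparison called 591, 329 without a filter, 312 with the replicate block, 1642 with the GC trend removed, 1769 with all 12 libraries, and 172 (without replicate 2 of untreated VC) to 2736 (without replicate 1 of untreated Bub1KO) with 1 library left out. The irradiated genotype comparison called 4512, 2062 without a filter and 2105 with all 12 libraries, and the difference of differences called 81, 283 with DESeq2, 411 with the GC trend removed, 47 with the replicate block, and 33 (without replicate 1 of irradiated VC) to 1447 (without replicate 1 of untreated Bub1KO) with 1 library left out. The causes were not tested. Rmrp and Rpph1 fell below the filter and were not tested, and Rn7sk had 86 reads in its lowest library.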
